A study of Homo sapiens with 2 samples.

Results

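Amphiregulin (AREG), epiregulin (EREG), heparin-binding EGF-like growth factor (HBEGF), transforming growth factor alpha (TGFA) and epigen (EPGN) are ligands of the epidermal growth factor receptor EGFR. They were examined as 5 genes chosen by name, of 16387 genes that both count tables of the series hold. All 5 passed the filter on low counts, which left 11147 genes for testing. The cells were MCF10A, a human breast epithelial line that is immortal but forms no tumours. Transcripts of single cells were counted as unique molecular identifiers (UMIs) in 2 pooled libraries, each of which was 1 biological replicate and held all 8 conditions. The unstimulated cells had no EGF (time 0 h), and 3 groups had EGF alone for 15 h, 20 h or 30 h. In 4 further groups an inhibitor of MEK or of PI3K was added 15 h after EGF, and cells were taken at 20 h or 30 h. Every group but the unstimulated one therefore had EGF, and no group combined the inhibitors. Which inhibitors were used, and at what dose, is not stated in the sources used here. All cells came from 1 line.

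EGFR ligands are made as membrane-anchored precursors and are cut free at the cell surface, mainly by the protease ADAM17. The released growth factors bind EGFR on the same cell or on neighbours, and the receptor signals through the RAS-RAF-MEK-ERK kinases and through PI3K and AKT. In breast epithelium amphiregulin is best known for its role in growth of the mammary ducts, and in cultured epithelial cells several ligand genes respond to EGFR signalling themselves, so that the receptor's ligands form a loop with it. Transcript counts say nothing of how much ligand was released, and EGF itself was supplied in the medium.

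The 16 sums of counts, 1 for each condition and library, held 213216 to 8508948 UMIs from 29 to 616 cells. The smallest was the unstimulated condition of library 2 with 29 cells, so every comparison with unstimulated cells rests on few cells there. Median depth was 7024 to 16000 UMIs per cell, deepest with EGF alone at 30 h, and 0 barcodes were shared between libraries. Of 10 markers of basal-like breast epithelium, the keratins KRT5, KRT14 and KRT6A had UMIs in at least 99.8% of cells of each library. KRT17 had them in 98.9% and 100%, ITGB4 in 77.1% and 75.9%, ITGA6 in 75.9% and 80.5% and LAMB3 in 63.1% and 63.8%. The others were found in fewer cells: CDH3 in 21.2% and 28.9%, TP63 in 11.7% and 15.0% and EPCAM in 2.94% and 8.51%. Of markers of leukocytes, endothelium and red cells, PTPRC, CD3E, VWF, CDH5, HBB and HBA2 had 0 UMIs, whereas CD68 had UMIs in 7.11% and 4.91% of cells, PECAM1 in 0.879% and 0.720%, HBA1 in 0.191% and 0.0901% and LYZ in 0.115% and 0.0901%. Of 5 luminal markers PGR had 0 UMIs, GATA3 had UMIs in 6.77% and 8.51% of cells, and ESR1, FOXA1 and KRT19 in at most 1.08%. Summed over a list the leukocyte markers reached 9.07 CPM and the luminal markers 18.8 CPM in any sum, and the fibroblast list reached 96.3 CPM (transcript counts scaled to a common library size), led by DCN. DUSP6, a phosphatase induced by ERK, fell from 22.6 and 18.5 CPM with EGF alone to 1.94 and 3.02 with the MEK inhibitor at 20 h (libraries 1 and 2). TXNIP, which PI3K and AKT signalling keeps low, rose with the PI3K inhibitor by 2.34 on the log2 scale at 20 h and by 2.07 at 30 h. Neither gene answered to 1 inhibitor only: at 30 h TXNIP rose by 0.58 with the MEK inhibitor and DUSP6 by 0.90 with the PI3K inhibitor.

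Of the 5 genes, 3 lie together on chromosome 4 in the human genome (GRCh38, GENCODE v29). EPGN is at chr4:74308473-74315307, EREG at chr4:74365143-74388751 and AREG at chr4:74445134-74455009, all on the plus strand, with gaps of 49835 and 56382 bases. HBEGF lies on the minus strand at chr5:140332843-140346631 and TGFA on the minus strand at chr2:70447280-70554193. The 250 bases before the transcription start of the chromosome 4 genes and of HBEGF are printed because these genes share a neighbourhood or a response below. The sequences are RefSeq's for GRCh38.p14, given 5′ to 3′ on the strand of the gene, and the transcription starts are RefSeq's too. These starts differ from the GENCODE gene limits above, so the HBEGF window overlaps the gene as placed there. The TGFA windows, searched but not printed, lie inside the TGFA gene as placed there. Capitals mark matches to the motifs searched, on either strand: TATA box (TATAAA), AP-1 (TGANTCA), cyclic AMP response element (CRE, TGACGTCA), ETS (CCGGAA), FOXO (GTAAACA) and the CArG box of serum response factor.
AREG, chr4:74444886-74445135, plus strand: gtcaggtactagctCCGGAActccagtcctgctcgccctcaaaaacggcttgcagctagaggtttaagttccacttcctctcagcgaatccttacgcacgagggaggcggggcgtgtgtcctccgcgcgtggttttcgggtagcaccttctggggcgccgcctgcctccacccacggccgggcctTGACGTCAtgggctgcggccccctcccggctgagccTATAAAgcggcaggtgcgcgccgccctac
EREG, chr4:74364895-74365144, plus strand: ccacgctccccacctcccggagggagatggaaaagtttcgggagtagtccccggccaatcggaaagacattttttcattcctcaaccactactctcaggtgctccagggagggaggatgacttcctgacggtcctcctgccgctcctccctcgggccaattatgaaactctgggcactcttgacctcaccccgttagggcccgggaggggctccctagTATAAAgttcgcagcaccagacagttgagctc
EPGN, chr4:74308220-74308469, plus strand: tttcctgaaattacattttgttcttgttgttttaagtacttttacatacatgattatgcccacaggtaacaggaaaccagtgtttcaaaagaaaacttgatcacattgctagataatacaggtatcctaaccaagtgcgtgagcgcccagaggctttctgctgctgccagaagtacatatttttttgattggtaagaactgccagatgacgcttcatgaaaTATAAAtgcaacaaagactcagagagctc
HBEGF, chr5:140346604-140346853, minus strand: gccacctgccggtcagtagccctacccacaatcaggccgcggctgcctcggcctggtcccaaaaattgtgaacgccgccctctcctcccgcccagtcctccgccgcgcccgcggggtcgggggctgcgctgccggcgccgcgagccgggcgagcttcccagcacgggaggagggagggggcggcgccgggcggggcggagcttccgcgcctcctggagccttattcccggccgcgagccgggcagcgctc
AREG, EREG and EPGN each held TATAAA, starting 29, 32 and 29 bases before the transcription start, and no printed matches overlapped. AREG also held TGACGTCA 65 bases before the start and CCGGAA 236 bases before it. Among 35116 promoters of the same length TATAAA was in 10.7%, TGACGTCA in 1.65%, CCGGAA in 14.5%, TGANTCA in 6.57%, GTAAACA in 2.98% and the CArG box in 1.16%. HBEGF held none of the 6 motifs in this window, and neither did the first of 2 TGFA starts, whereas the second held CCGGAA on the other strand. The upstream windows also differed in base composition, with 38% G and C in EPGN, 58% in EREG, 65.2% in AREG and 76.4% in HBEGF. A match is a stretch of letters and not a bound site.

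The ligand genes followed different courses across the 8 conditions. Levels below are CPM scaled by the trimmed mean of M-values (TMM), given for library 1 and then library 2. They are fractions of a cell's transcripts, so levels are compared between conditions of 1 gene and not between genes. AREG was at 96.1 and 296 CPM without EGF, at 420 and 572 CPM after 15 h of EGF, at 690 and 575 CPM after 20 h and at 770 and 772 CPM after 30 h. MEK inhibition left AREG at 228 and 226 CPM at 20 h and at 186 and 137 CPM at 30 h. With the PI3K inhibitor it was at 528 and 711 CPM at 20 h and at 948 and 1110 CPM at 30 h. In order of mean level the PI3K inhibitor at 30 h stood first, EGF at 30 h second, and their libraries did not overlap. EGF at 20 h, the PI3K inhibitor at 20 h and EGF at 15 h followed, and the range of the PI3K inhibitor group overlapped each of the other two, which did not overlap each other. The MEK inhibitor at 20 h, unstimulated cells and the MEK inhibitor at 30 h came last, below every library with EGF alone or the PI3K inhibitor. The unstimulated libraries were 3.08-fold apart and spanned both MEK inhibitor groups.

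EREG, a ligand of EGFR that also activates ERBB4, had overlapping levels in unstimulated cells and in all groups with EGF alone. Its levels were 5.90 and 22.1 CPM without EGF, 7.98 and 18.5 CPM at 15 h, 10.3 and 18.5 CPM at 20 h and 13.2 and 15.7 CPM at 30 h. EREG was lowest with the MEK inhibitor, at 2.33 and 5.43 CPM at 20 h and 4.52 and 7.88 CPM at 30 h. It was highest with the PI3K inhibitor, at 13.5 and 29.7 CPM at 20 h and 22.6 and 25.4 CPM at 30 h. The groups with the MEK inhibitor overlapped each other, and so did the groups with the PI3K inhibitor.

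HBEGF, which binds EGFR and ERBB4 and attaches to heparan sulfate, was highest at 20 h in library 1 and at 15 h in library 2 among the groups with EGF alone. It was at 3.37 and 4.42 CPM without EGF, at 3.90 and 27.0 CPM at 15 h, at 7.54 and 16.9 CPM at 20 h and at 1.58 and 6.26 CPM at 30 h. The libraries disagreed most here: at 15 h library 2 (19 UMIs in 64 cells) was 6.91-fold above library 1 (23 UMIs in 488 cells). With the PI3K inhibitor HBEGF was at 10.7 and 29.2 CPM at 20 h and at 12.7 and 22.8 CPM at 30 h. With the MEK inhibitor it was at 1.55 and 4.53 CPM at 20 h and at 0.502 and 1.16 CPM at 30 h, the latter from 2 and 10 UMIs. Of the 8 conditions only the MEK inhibitor at 30 h lay wholly below every other group in both libraries.

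TGFA, a classical EGFR ligand of epithelial and tumour cells, had a median ratio of library 2 to library 1 of 0.98. It was at 13.5 and 13.3 CPM without EGF, rose to 30.2 and 29.8 CPM at 15 h and then declined to 23.4 and 22.4 CPM at 20 h and 15.6 and 15.2 CPM at 30 h. With the PI3K inhibitor TGFA was at 14.6 and 15.8 CPM at 20 h and at 14.9 and 15.0 CPM at 30 h. Under MEK inhibition it was at 7.38 and 4.83 CPM at 20 h and at 5.27 and 4.75 CPM at 30 h. The order therefore ran from EGF at 15 h through EGF at 20 h to EGF at 30 h and both PI3K inhibitor groups, where the range of the PI3K inhibitor at 20 h covered the other two. Unstimulated cells lay just below these, and the MEK inhibitor groups lay lowest and overlapped each other.

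EPGN, the most recently described ligand of the family and one of low affinity for EGFR, had a pattern of its own. It was at 71.7 and 70.7 CPM without EGF, at 103 and 115 CPM at 15 h, at 57.5 and 75.1 CPM at 20 h and at 43.0 and 39.9 CPM at 30 h. With the MEK inhibitor EPGN was at 50.1 and 50.7 CPM at 20 h and at 68.6 and 61.2 CPM at 30 h. With the PI3K inhibitor it was at 46.7 and 60.9 CPM at 20 h and at 60.2 and 80.8 CPM at 30 h. EGF at 15 h was highest and EGF at 30 h lowest, each apart from all other groups. Between them, neighbours overlapped from unstimulated cells through the PI3K inhibitor at 30 h and EGF at 20 h to the MEK inhibitor at 30 h, and again between the inhibitor groups at 20 h.

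**Figure D1:**
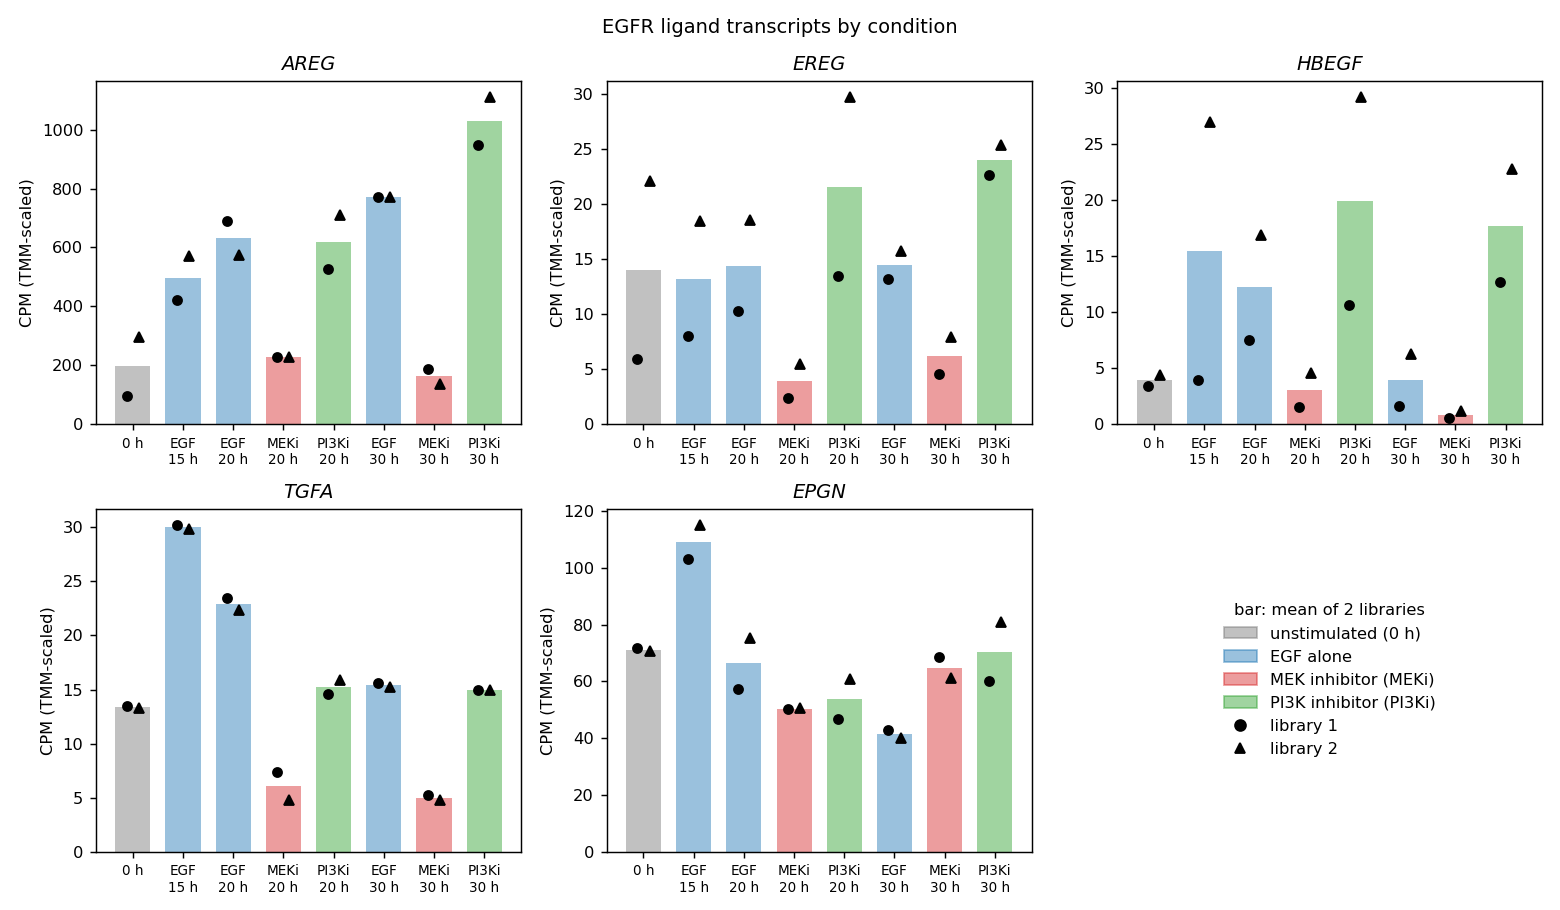
Levels of AREG, EREG, HBEGF, TGFA and EPGN in CPM (vertical axes, TMM-scaled, linear from 0) in the 8 conditions, with bars at the mean of 2 libraries, circles for library 1 and triangles for library 2. AREG is low in the MEK inhibitor groups (137 to 228 CPM) and highest with the PI3K inhibitor at 30 h, whereas EPGN is lowest with EGF alone at 30 h (43.0 and 39.9 CPM).

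Library 2 had higher EREG than library 1 in 8 of 8 conditions, by 1.12-fold to 3.74-fold, and higher HBEGF in 8 of 8, by 1.31-fold to 6.91-fold. AREG and EPGN were higher in library 2 in 5 of 8 conditions each and TGFA in 2 of 8, with ratios for TGFA between 0.654 and 1.08. Tests below therefore compare conditions within libraries: edgeR's quasi-likelihood test on the 16 sums held the library as a block. Adjusted p is Benjamini-Hochberg over all 11147 genes, and a gene is called at an adjusted p under 0.05. The ± is a standard error derived from this fit, with n = 2 libraries per condition. It is the absolute log2 fold change divided by the square root of the test's F statistic. It borrows the spread of all 16 sums and of all genes, so it is not the spread of the 2 libraries. For AREG with EGF at 30 h against unstimulated cells it was 0.20, whereas the libraries had log2 changes of 2.99 and 1.38.

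With EGF alone, 3 of the 5 ligands rose over the first 15 h, beside 14.1% of all genes tested that were called higher. AREG rose by 1.76 ± 0.21 on the log2 scale (3.39-fold, adjusted p = 2.8e-09), TGFA by 1.16 ± 0.31 (2.24-fold, adjusted p = 0.0035) and EPGN by 0.56 ± 0.18 (1.47-fold, adjusted p = 0.018), all upward in both libraries. HBEGF had a log2 change of 0.97 ± 0.68 (adjusted p = 0.3) and EREG of 0.15 ± 0.49 (adjusted p = 0.86). In library 2 the HBEGF ratio of 6.11 had a 95% counting interval of 0.971 to 254, since unstimulated cells gave 1 UMI there, and the TGFA ratio of 2.25 against 3 UMIs had one of 0.672 to 11.8. Without the unstimulated sum of library 1, none of the 3 ligands was called by edgeR, and AREG then had an adjusted p of 0.079. Without library 1 at 15 h HBEGF was called (2.01, adjusted p = 0.033) and TGFA and EPGN were not (adjusted p = 0.078 and 0.15). EPGN was also not called by DESeq2, without the library block or in the fit to the compared conditions alone (adjusted p from 0.06 to 0.074). Over the same interval 10 of 14 genes of an ERK output list rose and 0 fell, with a median of 1.93 against 0.02 over all genes.

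After 15 h the ligands parted. From 15 h to 20 h only EPGN was called, and it fell by 0.74 ± 0.13 (adjusted p = 3e-05), beside 1.66% of all genes called lower. From 20 h to 30 h 3 ligands fell, beside 3.27% of all genes. HBEGF fell by 1.63 ± 0.29 on the log2 scale (3.10-fold, adjusted p = 5.7e-05), EPGN by 0.67 ± 0.13 (adjusted p = 0.00019) and TGFA by 0.57 ± 0.17 (adjusted p = 0.025). None of these 4 falls was called without the library block (adjusted p from 0.077 to 0.51). The fall of EPGN from 15 h to 20 h was also not called without library 1 at 15 h (adjusted p = 0.098), and that from 20 h to 30 h without library 2 at 30 h (adjusted p = 0.072). TGFA was not called by DESeq2 (adjusted p = 0.097) or without any 1 of the 4 sums (adjusted p from 0.15 to 0.25). AREG had positive log2 changes of 0.41 ± 0.14 (adjusted p = 0.094) and 0.27 ± 0.14 (adjusted p = 0.24) in these steps, and EREG of 0.34 ± 0.26 (adjusted p = 0.59) and 0.01 ± 0.22 (adjusted p = 0.99). Against unstimulated cells at 30 h AREG was still up by 2.44 ± 0.20 (5.44-fold, adjusted p = 2.3e-14), among 17.6% of genes called higher, and EPGN fell by 0.85 ± 0.20 (adjusted p = 0.00061), among 16.2% called lower, though not without library 1 of the unstimulated cells (adjusted p = 0.4). EREG, HBEGF and TGFA had log2 changes of 0.50 ± 0.45, -0.33 ± 0.76 and 0.21 ± 0.34 and were not called.

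The MEK inhibitor lowered most of the ligand genes. At 20 h 4 of 5 fell, beside 7.15% of all genes called lower, and the median of the 5 was -1.83 against 0.01 over all genes. HBEGF fell by 2.02 ± 0.36 on the log2 scale (adjusted p = 4.1e-05), TGFA by 1.94 ± 0.23 (adjusted p = 1.3e-08), EREG by 1.83 ± 0.32 (adjusted p = 3.4e-05) and AREG by 1.49 ± 0.15 (adjusted p = 3.5e-11). As factors these falls were 4.07-fold, 3.83-fold, 3.54-fold and 2.81-fold. EPGN had a log2 change of -0.38 ± 0.14 (adjusted p = 0.061), negative in both libraries (-0.20 and -0.56). With scaling to library totals in place of TMM its adjusted p was 0.031, and in the fit to the compared conditions alone it was 0.026.

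At 30 h the MEK inhibitor lowered the same 4 ligand genes and raised EPGN. The share of all genes called lower was 19%, the share called higher was 18.9%, and the median of the 5 ligands was -1.63. AREG fell by 2.27 ± 0.15 on the log2 scale (4.82-fold, adjusted p = 2.5e-18), with -2.04 in library 1 and -2.49 in library 2. HBEGF fell by 2.25 ± 0.46 (adjusted p = 8.9e-05), TGFA by 1.63 ± 0.21 (adjusted p = 1.4e-08) and EREG by 1.18 ± 0.23 (adjusted p = 4.5e-05). In library 1 the HBEGF ratio was 0.317 with a counting interval of 0.0313 to 1.77, because it rests on 2 against 6 UMIs. EPGN rose by 0.64 ± 0.13 (1.56-fold, adjusted p = 4.8e-05), by 0.67 in library 1 and 0.61 in library 2. The fall of AREG and TGFA and the rise of EPGN were called under every alternative with a test. EREG and HBEGF were not called without the library block (adjusted p = 0.063 and 0.15 at 30 h, 0.085 and 0.29 at 20 h). HBEGF at 30 h was also not called without the EGF sum (adjusted p = 0.13) or the MEK inhibitor sum (adjusted p = 0.068) of library 2.

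Against the cells from which the inhibitor groups started, those with 15 h of EGF, all 5 ligands were lower with the MEK inhibitor at 20 h, beside 10.4% of all genes called lower. TGFA fell by 2.31 ± 0.24 on the log2 scale, HBEGF by 1.69 ± 0.43, EREG by 1.48 ± 0.37, EPGN by 1.12 ± 0.14 and AREG by 1.08 ± 0.15, with adjusted p between 1.1e-10 and 0.0029. Without the library block EREG and HBEGF were no longer called, which left 3. DESeq2 did not call AREG (adjusted p = 0.053), and HBEGF was not called without library 2 of EGF at 15 h (adjusted p = 0.11) or of the inhibitor (adjusted p = 0.067). Against unstimulated cells at 30 h only TGFA was called lower, by 1.42 ± 0.40 (adjusted p = 0.0081), beside 8.27% of genes, and not without library 1 of the unstimulated cells (adjusted p = 0.56). AREG with the MEK inhibitor differed from unstimulated cells by 0.17 ± 0.22 (adjusted p = 0.64), up in library 1 (0.95) and down in library 2 (-1.10). HBEGF had -2.58 ± 0.95 with an adjusted p of 0.05, which was not under the threshold.

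The PI3K inhibitor shared its EGF controls with the MEK inhibitor and left the ligands at or above them at 30 h. At 20 h HBEGF rose by 0.66 ± 0.25 on the log2 scale (adjusted p = 0.045), beside 11.4% of genes called higher. TGFA fell by 0.61 ± 0.19 (adjusted p = 0.016), beside 11.9% called lower. AREG had -0.05 ± 0.14 (adjusted p = 0.83), EREG 0.55 ± 0.23 (adjusted p = 0.069) and EPGN -0.30 ± 0.14 (adjusted p = 0.11). DESeq2 and the fit without the library block called 0 of the 5 at 20 h, and the fit to the compared conditions alone called 4. HBEGF was also not called with library totals (0.52, adjusted p = 0.12) or without any 1 of the 4 sums compared (adjusted p from 0.087 to 0.28). TGFA was not called without either EGF sum or the library 1 sum of the inhibitor (adjusted p from 0.052 to 0.32).

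At 30 h 4 ligands rose with the PI3K inhibitor, beside 19.7% of all genes called higher, and the median of the 5 was 0.74. HBEGF rose by 2.13 ± 0.26 on the log2 scale (4.37-fold, adjusted p = 2.9e-09), by 2.65 in library 1 and 1.78 in library 2. EPGN rose by 0.79 ± 0.13 (adjusted p = 9.4e-07), EREG by 0.74 ± 0.19 (adjusted p = 0.0014) and AREG by 0.41 ± 0.13 (adjusted p = 0.011). TGFA had -0.04 ± 0.18 (adjusted p = 0.88). HBEGF and EPGN were called under every alternative with a test. AREG was not called with library totals (0.18, adjusted p = 0.32), with DESeq2 (adjusted p = 0.49) or without the block (adjusted p = 0.35). Leaving out the EGF sum (0.36, adjusted p = 0.079) or the PI3K inhibitor sum (0.33, adjusted p = 0.13) of library 2 at 30 h also ended its call. EREG was not called without the block (adjusted p = 0.18), without the EGF sum of library 2 at 30 h (0.45, adjusted p = 0.23) or without the inhibitor sum of library 1 (0.48, adjusted p = 0.076). The choice of scaling matters for the rises: library totals moved the median of all genes in this comparison from 0.01 to -0.22 and the share of calls that were higher from 49.7% to 25.6%.

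Cells with the PI3K inhibitor gave fewer UMIs per cell than those with EGF alone, with median depths at 30 h of 11952 and 11650 UMIs against 16000 and 15371. The RNA content of cells was not measured. Per cell, AREG was at 10.1 and 13.5 UMIs with the PI3K inhibitor and at 11.9 and 13.3 UMIs with EGF alone, so its rise as a share of transcripts was not a rise in UMIs per cell in library 1. HBEGF was at 0.136 and 0.278 UMIs per cell against 0.0245 and 0.108, higher in both libraries. EREG was at 0.242 and 0.310 UMIs per cell against 0.204 and 0.270, also higher in both. EPGN was at 0.644 and 0.986 against 0.665 and 0.686, higher in library 2 only. All 15 mitotic genes of a fixed list fell with the PI3K inhibitor at both times, with medians of -1.05 and -2.61, beside 20% of all genes called lower at 30 h. In the cells of each condition at 30 h whose mitotic score was at or below its median, HBEGF was at 9.09 and 28.7 unscaled CPM with the PI3K inhibitor and at 1.85 and 10.6 with EGF alone. AREG in those cells was at 763 and 1075 unscaled CPM against 707 and 1111, so it was higher in library 1 and lower in library 2. Each condition was split at its own median, so these cells were not matched for mitotic content. In them the mitotic genes summed to 8.66 and 89.4 unscaled CPM with the PI3K inhibitor and to 552 and 1816 with EGF alone. The part that the share of mitotic cells has in these results was not tested beyond these values.

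**Figure D2:**
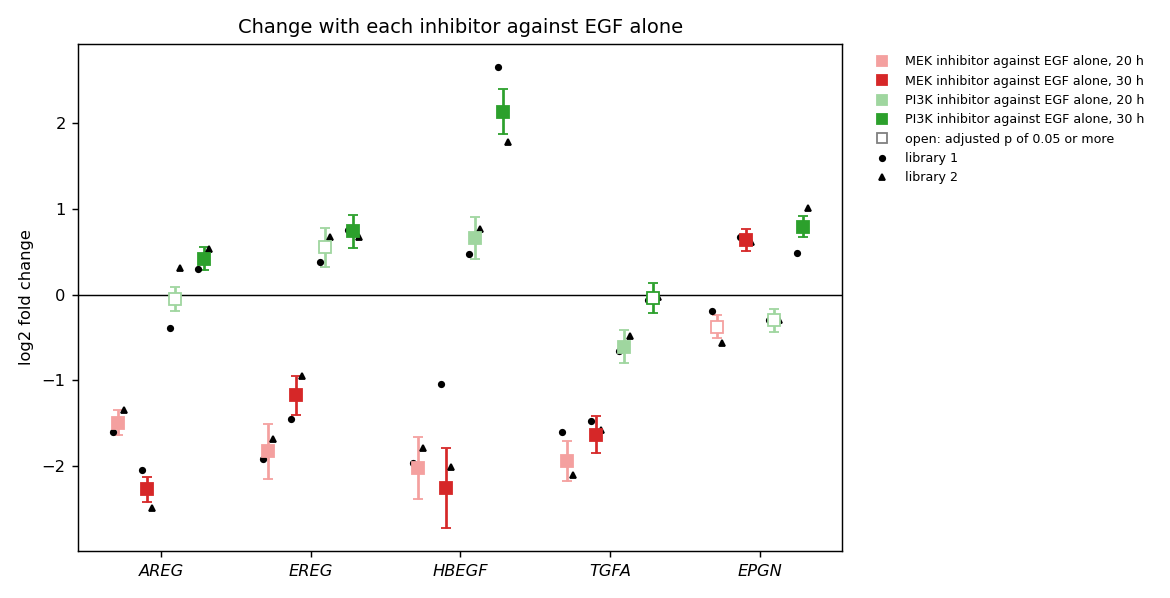
Log2 fold change of each ligand gene against EGF alone (vertical axis) for the MEK inhibitor (reds) and the PI3K inhibitor (greens) at 20 h and 30 h, with squares at the fitted value, bars of 1 standard error, and black circles and triangles for libraries 1 and 2 (log2 of CPM with a prior count of 2). AREG, EREG, HBEGF and TGFA lie between -2.27 and -1.18 with the MEK inhibitor, while at 30 h EPGN lies above 0 with both inhibitors.

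The direct comparison of the inhibitors does not use the EGF control. With the MEK inhibitor 4 of 5 ligands were lower than with the PI3K inhibitor at 20 h, beside 10.4% of all genes called lower, and the same 4 at 30 h, beside 20.3%. At 30 h HBEGF differed by -4.38 ± 0.34 on the log2 scale, AREG by -2.68 ± 0.15, EREG by -1.91 ± 0.21 and TGFA by -1.59 ± 0.21. At 20 h the values were -2.68 ± 0.35 for HBEGF (not called without the library block, adjusted p = 0.059), -2.38 ± 0.32 for EREG, -1.44 ± 0.15 for AREG and -1.33 ± 0.27 for TGFA. EPGN differed by -0.07 ± 0.15 at 20 h (adjusted p = 0.78) and by -0.15 ± 0.12 at 30 h (adjusted p = 0.3), with opposite signs in the libraries at both times.

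Compared with cells at 15 h of EGF, the PI3K inhibitor at 20 h left EREG higher by 0.89 ± 0.27 (adjusted p = 0.013) and HBEGF by 0.99 ± 0.30 (adjusted p = 0.016), beside 10% of genes called higher. TGFA was lower with -0.98 ± 0.20 (adjusted p = 0.00021) and EPGN with -1.04 ± 0.14 (adjusted p = 1.1e-07), beside 9.34% called lower. Compared with unstimulated cells at 30 h, AREG was higher by 2.86 ± 0.20 (adjusted p = 1.4e-16), HBEGF by 1.80 ± 0.58 (adjusted p = 0.02) and EREG by 1.24 ± 0.41 (adjusted p = 0.025), beside 10.7% called higher. Of these 3 only AREG was called by DESeq2 and without the library block. The rises of HBEGF and EREG against 15 h of EGF rest on library 1 at 15 h, without which HBEGF had 0.01 and EREG 0.44. TGFA then had -1.01, near its value with all sums, though it was not called. EPGN in this comparison was called under every alternative with a test, with log2 changes from -1.15 to -0.89. Without the unstimulated sum of library 1, EREG at 30 h had 0.40 (adjusted p = 0.8) and HBEGF 2.54 (adjusted p = 0.24).

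Whether an inhibitor's effect changed from 20 h to 30 h was tested as an interaction. The effect of the MEK inhibitor on AREG was more negative at 30 h, with a difference of -0.78 ± 0.20 (adjusted p = 0.012), beside 2.66% of all genes called that way. For EPGN it was more positive by 1.01 ± 0.19 (adjusted p = 0.00017), beside 2.92%. The effect of the PI3K inhibitor was more positive at 30 h for HBEGF by 1.47 ± 0.37 (adjusted p = 0.0084) and for EPGN by 1.09 ± 0.19 (adjusted p = 5.3e-05), beside 2.4%. The EGF control itself fell between these times for HBEGF (12.2 to 3.92 CPM as means) and EPGN (66.3 to 41.5 CPM). With the PI3K inhibitor the mean of HBEGF was 19.9 CPM at 20 h and 17.7 CPM at 30 h, and that of EPGN was 53.8 and 70.5 CPM. None of these 4 differences was called by edgeR without the library block, where the adjusted p ran from 0.12 to 0.7. That of AREG with the MEK inhibitor was also not called with DESeq2 (adjusted p = 0.54) or without 1 of 3 single sums: library 1 of the inhibitor at 20 h (adjusted p = 0.062), library 2 of EGF at 20 h (adjusted p = 0.14) or library 2 of the inhibitor at 30 h (adjusted p = 0.23).

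Counts per cell give the share of cells with a UMI and the mean in those cells. The share depends on the mean level too, so it does not count the cells that express a gene. Shares are given for libraries 1 and 2 over all UMIs of a cell, and then after thinning each cell to 6000 UMIs, which left out 341 of 4837 cells that were shallower. Intervals are 95% exact Clopper-Pearson intervals and cover counting error only. Because all cells are 1 line, no cell type without the genes was present to measure the share that free RNA gives. AREG had UMIs in 89.4% (84.8% to 93.0%) and 98.0% (95.9% to 99.2%) of cells with EGF alone at 30 h. With the MEK inhibitor at 30 h it had them in 53.2% (47.8% to 58.5%) and 66.7% (62.8% to 70.4%), and with the PI3K inhibitor in 90.4% and 95.6%. At 6000 UMIs the shares were 80.2% and 93.0% with EGF, 36.6% and 43.3% under MEK inhibition and 85.4% and 93.1% under PI3K inhibition. In cells with AREG the mean was 13.3 and 13.5 UMIs with EGF and 4.03 and 2.89 UMIs with the MEK inhibitor, so both the share of positive cells and the amount per positive cell were lower.

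The other ligands were found in fewer cells. For TGFA with EGF alone at 20 h the shares at 6000 UMIs were 12.3% and 13.4%. A Poisson distribution of the same mean gives 12.7% and 14.3%. For HBEGF under PI3K inhibition at 30 h it gives 6.65% and 12.1%, near the shares below. A lower share of these genes can therefore be a lower level without fewer expressing cells. EREG had UMIs in 11.6% and 16.3% of cells with EGF alone at 20 h and in 2.31% and 6.15% with the MEK inhibitor. TGFA had them in 26.5% and 24.0% with EGF alone at 20 h and in 8.33% and 6.15% with the MEK inhibitor. HBEGF had them at 30 h in 2.45% and 8.72% of cells with EGF alone, in 0.578% and 1.62% under MEK inhibition and in 10.9% and 20.0% under PI3K inhibition. At 6000 UMIs these became 1.15% and 4.27%, 0.104% and 0.739%, and 5.96% and 10.95%. For EPGN at 30 h the raw shares hid the difference in level: 46.1% and 47.7% with EGF alone and 47.4% and 51.8% with the MEK inhibitor became 21.7% and 23.4% against 27.6% and 30.1% at 6000 UMIs. Cells with an HBEGF UMI under PI3K inhibition at 30 h had a mean of 1.24 and 1.39 of them.

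**Figure D3:**
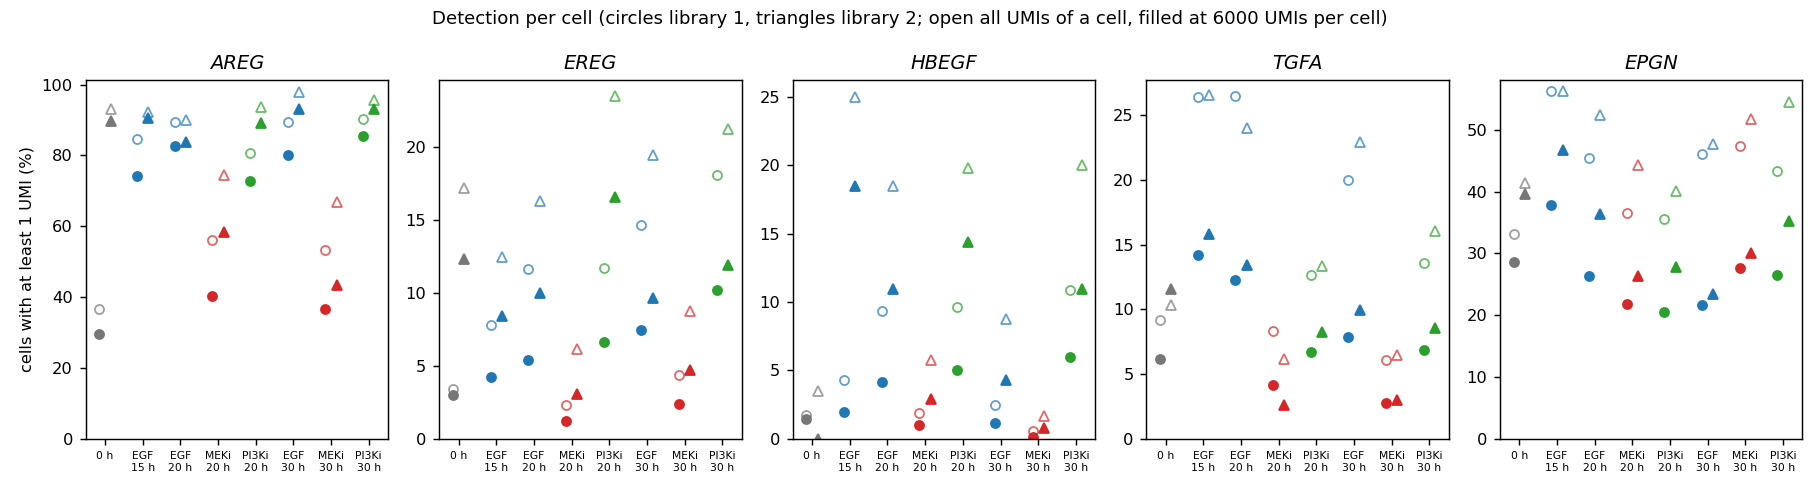
Percent of cells with at least 1 UMI of each ligand gene (vertical axes, from 0) in the 8 conditions, with circles for library 1 and triangles for library 2, open for all UMIs of a cell and filled for the expected share at 6000 UMIs per cell. At 6000 UMIs AREG falls from 80.2% and 93.0% with EGF alone at 30 h to 36.6% and 43.3% with the MEK inhibitor, and HBEGF reaches 5.96% and 10.95% with the PI3K inhibitor.

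AREG was unevenly spread among cells, with the MEK inhibitor and with EGF alone. The 10% of cells with the most AREG held 68.1% (library 1) and 47.7% (library 2) of its UMIs with the MEK inhibitor at 20 h, and 66.0% and 49.3% at 30 h. With EGF alone those 10% held 39.9% and 37.9% at 20 h and 38.8% and 31.0% at 30 h. These shares are over all UMIs of a cell and depend on the mean count too. At 20 h that mean was 2.72 and 3.07 UMIs per cell with the MEK inhibitor, and 9.81 and 7.73 with EGF alone. Whether AREG was held by fewer cells at an equal mean was not tested. In library 1 a single cell under MEK inhibition at 20 h had 90 of the 587 AREG UMIs of its group. At 6000 UMIs per cell, 5.21% and 2.76% of cells with the MEK inhibitor at 30 h still had at least 5 AREG UMIs, against 0.237% and 0.135% for a Poisson distribution of the same mean. The variance was 4.72 and 3.16 times the mean there and 5.81 and 5.43 times the mean with EGF alone at 30 h, so the count per cell was more spread than Poisson in both. The ratio of variance to mean also depends on the mean count, so AREG and EPGN are not compared by it. For EPGN it was 0.943 to 1.26 at 30 h over the 3 conditions and both libraries. It was 1.73 and 1.65 with EGF at 15 h, where 1.28% and 2.13% of cells had at least 5 EPGN UMIs, and in library 2 at 20 h it was 1.46 with EGF alone and 1.45 with the PI3K inhibitor.

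Some cells had UMIs of more than 1 ligand gene. The share expected of independent genes was not computed, so co-expression is not read from the shares below. At 6000 UMIs the share of cells with no UMI of any of the 5 genes was 15.2% and 4.28% with EGF alone at 30 h, 46.0% and 39.5% under MEK inhibition and 9.12% and 4.54% under PI3K inhibition. The mean number of ligand genes detected per cell was 1.19 and 1.44, 0.675 and 0.788, and 1.37 and 1.57 in that order, and 0 cells had all 5. Exactly 2 of the 5 genes were found in 27.4% and 33.6% of cells with EGF alone, 12.3% and 15.9% under MEK inhibition and 31.8% and 39.3% under PI3K inhibition, and exactly 3 in 2.17% and 5.81%, 0.614% and 1.21%, and 6.91% and 9.29%. Across cells of 1 library and condition, the Spearman correlation of AREG with the summed UMIs of EREG, HBEGF and TGFA ranged from -0.148 to 0.237 with a median of 0.0929 over 16 library-conditions. That of AREG with DUSP6 ranged from -0.231 to 0.0947. These counts are sparse, the cells share a library, and the values are given as a description.

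**Figure D4:**
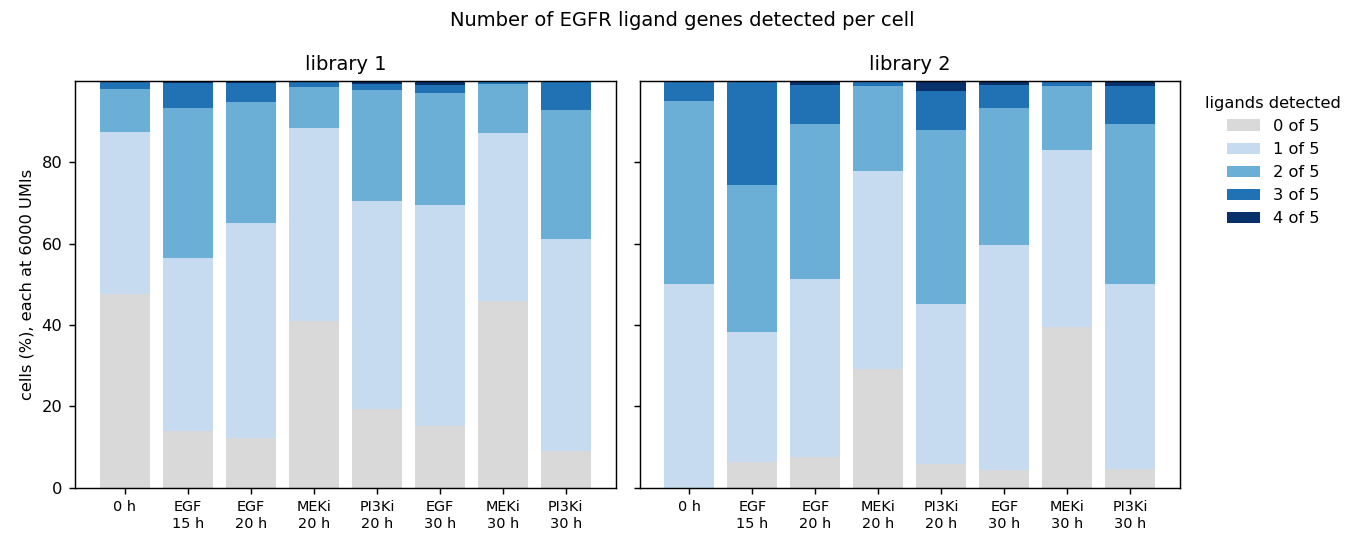
Percent of cells (vertical axis, 0 to 100) with UMIs of 0, 1, 2, 3 or 4 of the 5 ligand genes in each condition, for library 1 and library 2, with each cell thinned to 6000 UMIs. Cells without any ligand UMI make up 46.0% and 39.5% with the MEK inhibitor at 30 h and 15.2% and 4.28% with EGF alone.

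The 5 genes were also compared with the rest of the pathway. Among 14 ERK output genes, such as the phosphatases DUSP4 and DUSP6 and the Sprouty inhibitors, 13 fell with the MEK inhibitor at 20 h, beside 7.15% of all genes, and 14 at 30 h, beside 19%, with medians of -2.45 and -2.39. The fall of SPRY4 at 30 h was 5.20 ± 0.73 and that of DUSP4 was 3.12 ± 0.16 on the log2 scale. At 30 h 6 of the 14 rose with the PI3K inhibitor, beside 19.7% of all genes, and 2 fell, beside 20%: PHLDA1, DUSP5 and DUSP6 had 1.01, 1.14 and 0.90, whereas ETV4 and FOSL1 had -0.95 and -0.46. Of 3 measured ERBB receptors none was called with the MEK inhibitor at 20 h. EGFR rose with the PI3K inhibitor by 0.44 ± 0.10 at 20 h and 1.16 ± 0.09 at 30 h, from 110 and 134 CPM with EGF alone to 269 and 277 CPM at 30 h. ERBB2, the ligandless partner receptor, rose at 30 h with both inhibitors, by 0.87 ± 0.27 (PI3K) and 0.80 ± 0.26 (MEK). After 15 h of EGF 2 of the 3 receptors were lower than in unstimulated cells, beside 13.9% of all genes.

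Among 9 measured genes of ligand processing and trafficking, 2 fell with the MEK inhibitor at 20 h, beside 7.15% of all genes: RHBDF2 by 1.40 ± 0.45 and FRMD8 by 0.75 ± 0.24. Their products, an inactive rhomboid and its partner, carry and stabilise ADAM17. At 30 h 3 rose with the MEK inhibitor, beside 18.9% of all genes, and 4 with the PI3K inhibitor, beside 19.7%. RHBDF1 rose by 1.04 ± 0.27 with the MEK inhibitor and by 1.26 ± 0.27 with the PI3K inhibitor, and the tetraspanin CD9 by 1.05 ± 0.10 and 0.70 ± 0.11. RHBDF2 rose by 1.15 ± 0.32 with the PI3K inhibitor. The proteases ADAM17 and ADAM10 were not called in any comparison of an inhibitor with EGF alone. Of 10 brakes and adaptors of EGFR, ERRFI1, which binds and inhibits the receptor's kinase, fell by 0.93 ± 0.23 with the MEK inhibitor at 20 h and had -0.18 ± 0.18 at 30 h (adjusted p = 0.46). It rose with the PI3K inhibitor by 1.60 ± 0.16 at 20 h and 0.76 ± 0.16 at 30 h. The ubiquitin ligase gene CBLB rose at 30 h with both inhibitors, by 1.84 ± 0.40 (PI3K) and 1.55 ± 0.40 (MEK), and SH3KBP1 fell with both, by 1.13 ± 0.19 and 1.29 ± 0.19.

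Of 6 other EGF-family ligands only NRG1 (a ligand of ERBB3 and ERBB4) and NRG4 (a ligand of ERBB4) had enough counts to test. Both fell with the PI3K inhibitor at 30 h, by 1.55 ± 0.45 and 1.30 ± 0.50, while NRG4 rose by 1.19 ± 0.34 with the MEK inhibitor. BTC, the next EGFR ligand gene on chromosome 4, had at most 10 UMIs in any sum. Neighbours of AREG, EREG and EPGN on chromosome 4 include chemokine genes, and 6 of 10 could be tested. At 20 h 3 of them fell with the MEK inhibitor, beside 7.15% of all genes: CXCL1 by 1.78 ± 0.32, CXCL3 by 1.29 ± 0.29 and MTHFD2L by 0.45 ± 0.14. At 30 h CXCL2 and MTHFD2L fell and RASSF6 rose by 1.91 ± 0.32, and with the PI3K inhibitor RASSF6, CXCL3 and CXCL1 rose while CXCL2 fell by 0.93 ± 0.23. At 30 h between 18.9% and 20% of all genes were called in each direction with either inhibitor. Called neighbours went in both directions at 30 h, as did genes at large. With 6 genes tested, no trait of the neighbourhood is read from these counts.

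Likeness of pattern was measured by Pearson's r of log2(CPM + 1) over the 8 conditions within each library, taking the smaller of the 2 values, among genes whose mean reached 20 CPM. The conditions share libraries and the values are a description. AREG was most like DUSP4 (0.932), NT5E (0.929) and ARG2 (0.925), of 4705 genes. EREG was most like ZFP36L2 (0.929), STK17A (0.912) and ITGA2 (0.89), and the genes most like HBEGF included LRPPRC (0.898) and ITCH (0.893). TGFA was most like PUS1 (0.932), EIF2S2 (0.919) and CD3EAP (0.915). For EPGN the nearest genes were less alike, with CLDN7 at 0.771, TP53I3 at 0.755 and LRFN4 at 0.705. Among the ligands themselves AREG and EREG had 0.782 in library 1 and 0.763 in library 2, and EREG and HBEGF had 0.729 and 0.726. AREG and EPGN, though neighbours on the chromosome, had -0.34 and 0.181.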

How the data were processed

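Single MCF10A cells of 8 conditions were marked with sample tags and pooled into 1 library per biological replicate, per the labels' protocols. The authors deposited UMI counts for each gene symbol in each cell, whole numbers without normalisation in both files. Cell Ranger 3.0.2, Seurat and GRCh38 are named in the submitters' processing notes. How tags were called and cells filtered, and which annotation release and strand setting were used, is not stated in the sources used here. Each deposited cell had 1 tag, and 56.1% and 40.2% of the tag tables' barcodes were marked as doublets by the authors. Doublets within a tag cannot be seen this way. No further cell filter was applied.

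UMIs of each condition were added up within its library. The resulting 16 sums entered edgeR 4.0.16 (R 4.3.3, limma 3.58.1): quasi-likelihood F test, filterByExpr, TMM, the library as a block, and Benjamini-Hochberg adjustment over 11147 genes at 0.05. The fit had 7 residual degrees of freedom and a biological coefficient of variation of 0.0604. All conditions of a library were pooled in 1 tube, which pairs them by design. Deviations from condition means correlated between conditions of 1 library with a median r of 0.59 (0.289 to 0.679, 28 pairs of conditions, 4706 genes). DESeq2 1.42.0 and other settings were alternatives. The scripts were tested on simulated data.

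The 5 genes were given by name. At most 4 called genes of largest change were named per list, plus members going against the list, and 3 genes per ligand by likeness, of which 1 is not reported here. The members and lists were chosen with earlier results of these data known. The pair of samples per condition limits precision, and intervals cover counting error only.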

Additional observations from a re-analysis of the deposited data

Results flagged for a closer look

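For 4 results the effect of an inhibitor against EGF alone differed between 20 h and 30 h by the test of the difference itself (edgeR quasi-likelihood interaction, adjusted over all genes, n = 2 libraries per condition). The MEK inhibitor's log2 effect on AREG was -1.49 at 20 h and -2.27 at 30 h, a difference of -0.78 with the same sign in both libraries (-0.45 and -1.14). Its effect on EPGN went from -0.38 to 0.64, a difference of 1.01 (0.86 and 1.17 by library). The PI3K inhibitor's effect on HBEGF went from 0.66 to 2.13, a difference of 1.47 (2.17 and 1.01 by library). Its effect on EPGN went from -0.30 to 0.79, a difference of 1.09 (0.78 and 1.31 by library). Each difference holds the EGF control of both times, and that control fell from 20 h to 30 h for HBEGF and EPGN. The cause of these differences was not tested.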

How the results depend on the processing

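Of 80 values (5 ligands in 16 comparisons) 49 were called and 19 of these were called under every alternative with a test, among them AREG and TGFA with the MEK inhibitor at 20 h and 30 h, and HBEGF and EPGN with the PI3K inhibitor at 30 h. None reversed in sign while called. Without the replicate block 24 calls were lost. The number of ligands called then went from 1 to 0 (EGF 20 h against 15 h), 3 to 0 (EGF 30 h against 20 h), 4 to 2 (MEK inhibitor, 20 h), 2 to 0 (PI3K inhibitor, 20 h), 5 to 3 (MEK inhibitor, 30 h), 4 to 2 (PI3K inhibitor, 30 h), 5 to 3 and 4 to 2 (MEK and PI3K inhibitor at 20 h against EGF 15 h), 3 to 1 (PI3K inhibitor at 30 h against unstimulated cells) and 2 to 0 for both interactions. The other losses were EPGN with EGF at 15 h against unstimulated cells and HBEGF between the inhibitors at 20 h. The conditions of a library share its preparation, so the block follows the design. With DESeq2 the counts were 0 for the PI3K inhibitor at 20 h, 2 for it against EGF 15 h, 1 for it at 30 h against unstimulated cells, 1 for each interaction (it gave HBEGF no adjusted p in the PI3K interaction) and 2 for the MEK inhibitor at 30 h against unstimulated cells, where no filter and limma-voom also gave 2. For EGF 20 h against 15 h, no filter, the fit without the unstimulated condition and the fit to the compared conditions alone each gave 2. For the PI3K inhibitor at 20 h limma-voom gave 1 and the fit to the compared conditions 4.

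Leaving out 1 sum at a time was added after seeing the data, and the lone library is then assumed to vary like the others. The counts ranged from 0 to 3 (EGF 15 h against unstimulated, lowest without library 1 of the unstimulated cells), 0 to 2 (EGF 20 h against 15 h, 0 without library 1 at 15 h), 1 to 3 (EGF 30 h against 20 h, lowest without library 2 at 30 h), 1 to 2 (EGF 30 h against unstimulated), 0 to 1 (PI3K inhibitor, 20 h, 0 without either EGF sum), 2 to 4 (PI3K inhibitor, 30 h, lowest without library 2 of EGF), 1 to 5 (PI3K inhibitor 20 h against EGF 15 h), 0 to 2 (MEK inhibitor 30 h against unstimulated), 1 to 3 (PI3K inhibitor 30 h against unstimulated) and 1 to 2 (MEK interaction). A scaling by size factors of the DESeq2 type moved no call. Library totals moved the share of all calls that were higher from 40.2% to 29.4% (MEK, 20 h), 48.9% to 26.8% (PI3K, 20 h), 49.9% to 29.3% (MEK, 30 h), 50.3% to 66.2% (EGF 15 h against unstimulated), 67.4% to 79.2% (20 h against 15 h), 52.2% to 70.5% (30 h against unstimulated), 51.8% to 65% (MEK against PI3K, 20 h), 54.4% to 65.5% (MEK 30 h against unstimulated), 51.7% to 36.3% (PI3K 20 h against EGF 15 h), and 52.3% to 25.6% and 42.5% to 24.8% for the MEK and PI3K interactions. Depth limits HBEGF, TGFA and EREG, with 1 to 140, 3 to 178 and 5 to 156 UMIs per sum.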
